A study of Mus musculus with 7 samples.

Results

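PanMeso cells taken back out of pancreatic tumours were compared with the same cells in culture, and the genes described are those whose level moved the same way in tumours made with each of 2 cancer lines. Of 13784 genes tested, 3061 were higher in both tumour-sorted groups and 3259 were lower in both. All 7 libraries of the series were used. They came from 2 samples of eGFP-positive PanMeso cells sorted from BMFA3 tumours, 2 sorted from CT1BA5 tumours, and 3 of parental PanMeso cells. PanMeso is a mouse mesothelial cell line derived from pancreas that carries enhanced green fluorescent protein (eGFP). In every group the line had been kept in medium 199 with serum, insulin (870 nM), hydrocortisone (400 nM) and epidermal growth factor (3.3 nM), at 33 °C and moved to 37 °C for the last 3 days. For the tumour groups, PanMeso cells were placed in the pancreas of mice together with BMFA3 or CT1BA5 pancreatic cancer cells, and the eGFP-positive cells of the tumours were then sorted by flow cytometry. No group holds PanMeso cells grown in a host without cancer cells, so growth in a host and the presence of cancer cells cannot be told apart. Time away from the culture medium and its hormones, removal from a tumour and flow sorting also went with the tumour groups alone. Their parts cannot be told apart either. The labels give neither the strain, age or genotype of the hosts nor the time in the tumour. They also do not say whether 2 libraries of a line are 2 tumours, so each p-value measures the spread between these libraries, which may be technical.

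Mesothelial cells form a flat epithelium that lines body cavities and covers organs, joined by tight junctions and keratin filaments and resting on a basement membrane. In injured or tumour-bearing tissue such cells can take on features of fibroblasts, which build collagen matrix, contract through actin filaments and secrete growth factors and cytokines. A secreting cell needs ribosomes, the folding machinery of the endoplasmic reticulum (ER) and vesicles to the Golgi, whereas a dividing cell needs nucleotides, replication forks and DNA repair. The results below follow these functions.

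Library totals were 14792189 and 16501058 counts for BMFA3, 14327365 to 16981596 for CT1BA5 and 10096839 to 19210598 for parental cells. The 13 mesothelial markers summed to 2314 and 2331 CPM (counts scaled to the size of the library) in BMFA3 libraries and to 1065 and 1072 CPM in CT1BA5 libraries, against 11983 to 13152 CPM in parental cells. Of these markers 10 fell in both lines and 0 rose in both. Cdh3 was called in opposite directions, at 221 and 212 CPM in BMFA3 and 112 and 96.7 CPM in CT1BA5, against 164 to 193 CPM in parental cells. Wt1 and Bnc1 were called, lower, in CT1BA5 alone. In BMFA3 Wt1 stood at 252 and 262 CPM, against 231 to 269 CPM in parental cells, and Bnc1 at 129 and 125 CPM, against 118 to 133 CPM. The 10 macrophage markers summed to 23.3 and 25.8 CPM in BMFA3 and 27.2 and 27.4 CPM in CT1BA5. In parental libraries they summed to 12.3 to 15.8 CPM. Of these markers, 4 (Itgam, Cx3cr1, C1qa and C1qb) were at 0 counts in every library. Only Csf1r, Cd68 and Fcgr3 passed the count filter, and Csf1r and Fcgr3 were called higher in both lines. Adgre1 had 2 counts in the second BMFA3 library and 0 elsewhere. The 5 general leukocyte markers summed to 9.14 and 10.5 CPM in BMFA3 and 1.09 and 1.94 CPM in CT1BA5. In parental libraries they summed to 1.81 to 2.91 CPM. Of these markers, 2 (Ptprc and Cd52) were at 0 throughout, and Cd53 alone stood at 8.77 and 9.74 CPM in BMFA3. The 5 neutrophil markers summed to 5.30 and 6.76 CPM in BMFA3, 1.49 and 2.34 CPM in CT1BA5 and 0.0920 to 0.245 CPM in parental libraries. Most of this sum in tumour libraries was S100a8, the only one that passed the count filter. It was called higher in both lines, at 4.37 CPM or more in BMFA3 and 1.16 CPM or more in CT1BA5. S100a9 was at 0 counts in every library, and Ly6g at 0 in every tumour library. Mpo had 2 counts or fewer in each library, and Cxcr2 was at 0.795 CPM or less. Of 4 acinar markers Cela1 alone rose, to 4.08 and 2.85 CPM in BMFA3 and 3.43 and 5.53 CPM in CT1BA5, against 0.589 to 0.920 CPM in parental libraries. Cpa1 was at 0 counts in every library, and Pnlip had 1 count in the first CT1BA5 library and 0 elsewhere. Prss2 was at 0.291 CPM or less throughout. The 3 islet and 3 adipocyte markers were at 0 in every library. The 7 carcinoma epithelium markers summed to 7.69 and 9.69 CPM in BMFA3 and 1.64 and 2.46 CPM in CT1BA5. In parental libraries they summed to 8.93 to 14.1 CPM. Among them Cdh1 fell in both lines, Epcam was at 0.389 CPM or less, and Krt5 and Tff1 were at 0 throughout. Muc1 was called higher in BMFA3 alone, at 1.46 and 1.26 CPM, and Cldn4 in CT1BA5 alone, at 0.906 and 0.934 CPM. The part of such cells in the changes below was not tested. In these bulk libraries, fewer cells that express a gene and less of its RNA per cell cannot be told apart.

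A gene was called when its Benjamini-Hochberg adjusted p was under 0.05 in edgeR's quasi-likelihood test. Against parental cells, 59.0% of all tested genes were called in BMFA3 cells and 70.7% in CT1BA5 cells. Both comparisons use the same parental libraries. Genes called higher in both lines were 22.2% of those tested and genes called lower in both were 23.6%, while 459 genes (3.33%) were called in opposite directions. A further 1356 genes (9.84%) were called in BMFA3 alone and 2964 (21.5%) in CT1BA5 alone, and 2685 (19.5%) in neither. In 3030 of the shared higher genes (99.0%) every tumour library lay above every parental library, and in 3235 of the shared lower genes (99.3%) every one lay below. Over all tested genes these shares were 27.6% and 28.4%. The shared genes were called from these same libraries, so their separation follows largely from the choice and adds no support. The same holds for the shared genes named below. A change of more than 2-fold in each line was called for 579 higher genes (4.2%) and 800 lower genes (5.80%). The mean of both lines, weighted equally, called 69.6% of genes, 4797 higher and 4802 lower than in parental cells (34.8% each). The shared higher genes had a median log2 fold change of 0.69 in BMFA3 and 0.94 in CT1BA5, and the shared lower genes -0.84 and -1.19, beside 0.00 in BMFA3 and -0.00 in CT1BA5 over all genes tested. With libraries scaled by their totals alone, the shared counts were 2303 higher and 4054 lower, and the median of all genes moved by -0.07 in BMFA3 and -0.23 in CT1BA5.

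The shares also differed with the level of the gene, and with which level classed it. A class set by the level in 1 condition favours one direction, so genes were classed by the midpoint, on a log scale, of the mean of both lines and the parental mean, a choice made after the values were seen. Of 84 genes with a midpoint over 1000 CPM, 63.1% were higher in both lines and 15.5% lower. Between 100 and 1000 CPM the shares were 33.5% higher and 23.0% lower, and between 10 and 100 CPM 22.1% higher and 25.5% lower. Under 1 CPM 15.4% were higher and 16.2% lower, in genes whose low counts also give fewer calls. Classed by parental level alone, 41.8% of 79 genes over 1000 CPM were higher and 35.4% lower, and between 100 and 1000 CPM 26.6% were higher and 32.1% lower, so the excess of higher genes between 100 and 1000 CPM depends on the class used. Classed by the mean of the 3 groups, in which the 2 tumour lines outweigh parental cells, 111 genes lay over 1000 CPM, 71.2% of them higher and 13.5% lower. Together the shared higher genes held 44.9 and 45.7% of all counts in BMFA3 libraries and 52.0 and 53.5% in CT1BA5 libraries, against 28.7 to 29.8% in parental libraries. The shared lower genes held 16.3 and 16.7% in BMFA3, 12.2 and 12.6% in CT1BA5 and 31.7 to 32.3% in parental libraries.

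**Figure D1:**
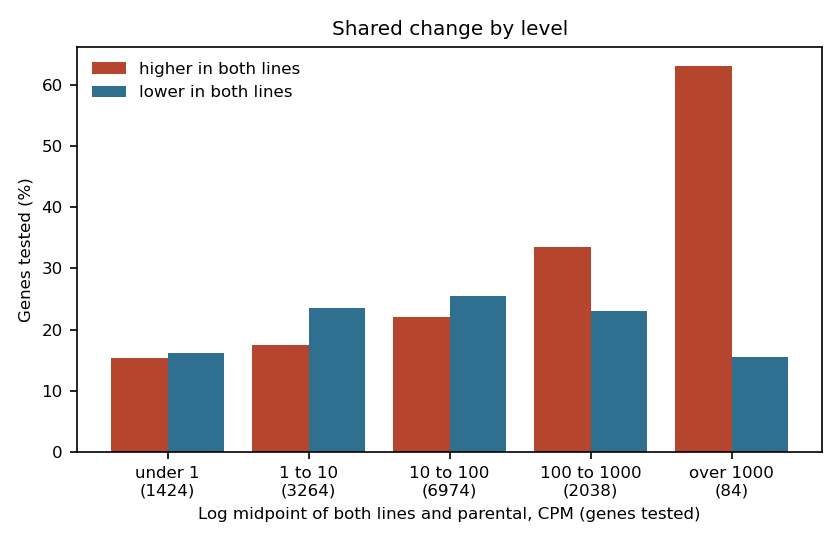
Share of tested genes (%, bars) called higher in both lines and lower in both lines, against the level of the gene in CPM, taken as the log midpoint of the mean of both lines and the parental mean; the number of genes tested is in brackets. In the class over 1000 CPM, 63.1% were higher and 15.5% lower.

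**Figure D2:**
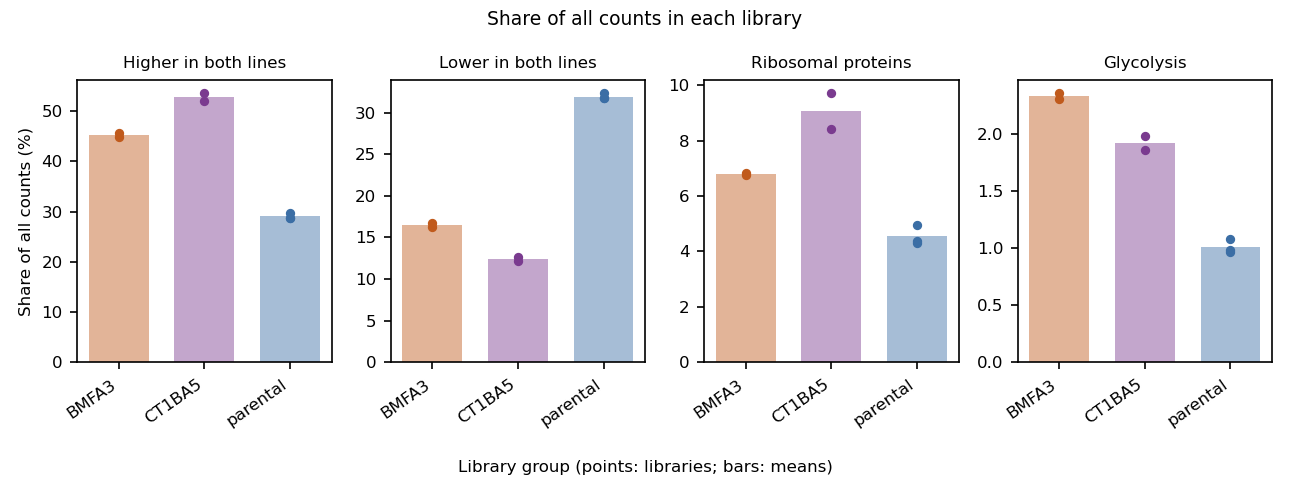
Share of all counts (%) in each library (points) and group mean (bars) for the genes higher in both lines, the genes lower in both lines, cytosolic ribosomal protein genes and glucose uptake and glycolysis genes, with a separate axis per panel. In the first panel all BMFA3 and CT1BA5 libraries lie at or above 44.9% and all parental libraries at or below 29.8%.

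The genes that rose most included enzymes of inflammatory mediators and builders of the pericellular matrix. Nos2 (ENSMUSG00000020826, GRCm38 chromosome 11, 78920787 to 78960254), the inducible nitric oxide synthase, stood at 26.5 and 27.8 CPM in BMFA3 and 88.2 and 85.9 CPM in CT1BA5, and at 0 counts in every parental library. Against a floor of 3 counts over the parental group its excess was at least 407-fold in BMFA3 and in CT1BA5 at least 1307-fold. Nos2 is also made by activated macrophages, whose summed markers are given above. Ptgs2 (ENSMUSG00000032487, chromosome 1, 150100031 to 150108227), cyclooxygenase-2 of prostaglandin synthesis, stood at 2427 and 2507 CPM in BMFA3 and 3925 and 3747 CPM in CT1BA5, against 95.4, 98.4 and 104 CPM in parental cells. Its log2 fold changes were 4.63 ± 0.063 (SE) in BMFA3 and 5.27 ± 0.065 in CT1BA5 (adjusted p = 1.4e-20 and 2e-21, edgeR). Has2 (ENSMUSG00000022367, chromosome 15, 56665627 to 56694539), which makes hyaluronan at the cell surface, stood at 295 and 298 CPM in BMFA3 and 888 and 868 CPM in CT1BA5, against 7.18, 5.68 and 5.25 CPM in parental cells. These genes were chosen among those whose groups did not overlap, so their separation adds no support.

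Several of the other large risers act outside the cell. Sod3, the extracellular superoxide dismutase, stood at 169 and 169 CPM in BMFA3 and 290.4 and 309 CPM in CT1BA5, against 5.89 to 6.77 CPM in parental cells. Chst11, which sulphates chondroitin chains, stood at 127 and 128 CPM in BMFA3 and 386 and 296 CPM in CT1BA5, against 2.75 to 4.44 CPM in parental cells. Slpi, a secreted inhibitor of leukocyte proteases, stood at 40.9 and 39.4 CPM in BMFA3 and 36.4 and 45.6 CPM in CT1BA5, against 0.920 to 1.60 CPM in parental cells. Ltbp2 of the elastic microfibrils rose by 4.90 ± 0.098 and 6.2 ± 0.094 in log2 terms, and Pappa, a protease of insulin-like growth factor binding proteins, by 4.71 ± 0.38 and 6.90 ± 0.31, in BMFA3 and CT1BA5. Nuak1, a kinase of the AMPK family, rose by 4.91 ± 0.15 in BMFA3 and 4.85 ± 0.15 in CT1BA5. In all, 12 genes were under 1 CPM in parental cells and at 10 CPM or more in each line, among them Nos2, Pappa, Sorcs2 and Fam78b.

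By level per kilobase of exon, the elongation factor gene Eef1a1 led the shared higher genes named, with 6022 CPM per kb in BMFA3, 7690.4 in CT1BA5 and 3667 in parental cells. Timp1, the inhibitor of matrix metalloproteinases, stood at 3606, 5830.1 and 188 CPM per kb in the same groups, and the osteopontin gene Spp1 at 1619, 2038 and 8.58 CPM per kb. Timp2, which has a related inhibitor role, went the other way: it stood at 1690.2 and 1706 CPM in BMFA3 and 1694 and 1603 CPM in CT1BA5, against 3542 to 4140.1 CPM in parental cells.

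**Figure D3:**
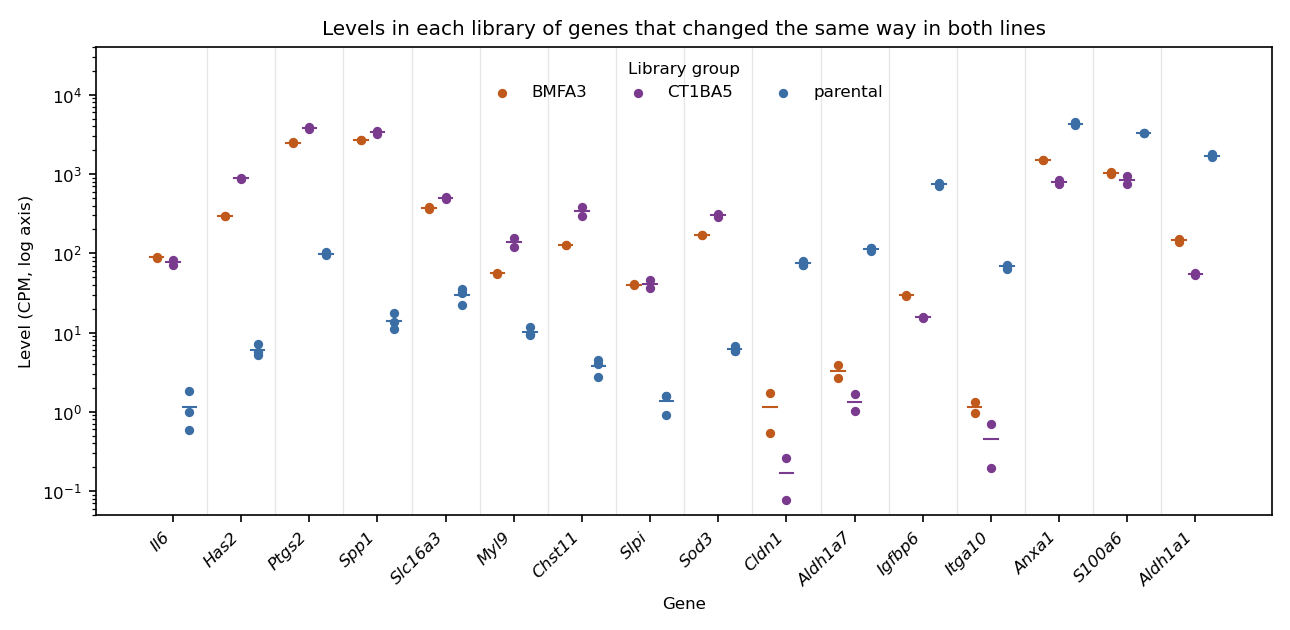
Level (CPM, log axis) of 16 genes called the same way in both lines, in each library (points) with the group mean (line), for BMFA3, CT1BA5 and parental cells from left to right within each gene. In the 9 genes on the left every tumour library lies above every parental library, and in the 7 on the right below; Ptgs2 lies between 2427 and 3925 CPM in tumour libraries and at or below 104 CPM in parental ones.

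The genes that fell most included a detoxifying enzyme and parts of the epithelial surface. Sult1a1, a sulphotransferase of phenols, stood at 0.426 and 0.464 CPM in BMFA3 and at 0 counts in CT1BA5, against 38.4 to 40.1 CPM in parental cells, and was at least 369-fold lower in CT1BA5. Cldn1 (ENSMUSG00000022512, chromosome 16, 26356642 to 26371841), the tight junction protein claudin-1, stood at 0.548 and 1.72 CPM in BMFA3 and 0.259 and 0.0779 CPM in CT1BA5, against 80.8, 71.1 and 71.5 CPM in parental cells. Both genes were under 2 CPM in every tumour library, and both were chosen among genes whose groups did not overlap. Itga10, a collagen-binding integrin chain, stood at 0.975 and 1.33 CPM in BMFA3 and 0.194 and 0.701 CPM in CT1BA5, against 64.2 to 72.0 CPM in parental cells. Igfbp6, which binds insulin-like growth factor, stood at 29.1 and 29.8 CPM in BMFA3 and 15.4 and 15.9 CPM in CT1BA5, against 708 to 774 CPM in parental cells. Rapgef5, an activator of Rap GTPases, fell by 5.41 ± 0.11 in BMFA3 and 7.0 ± 0.14 in CT1BA5 on the log2 scale. Hmcn1, the basement membrane protein hemicentin-1, changed by -4.43 ± 0.30 and -7.21 ± 0.43. In all, 11 genes were at 10 CPM or more in parental cells and under 1 CPM in each line, among them Sult1a1, Strip2, Sh2d4a and Gata5.

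**Figure D4:**
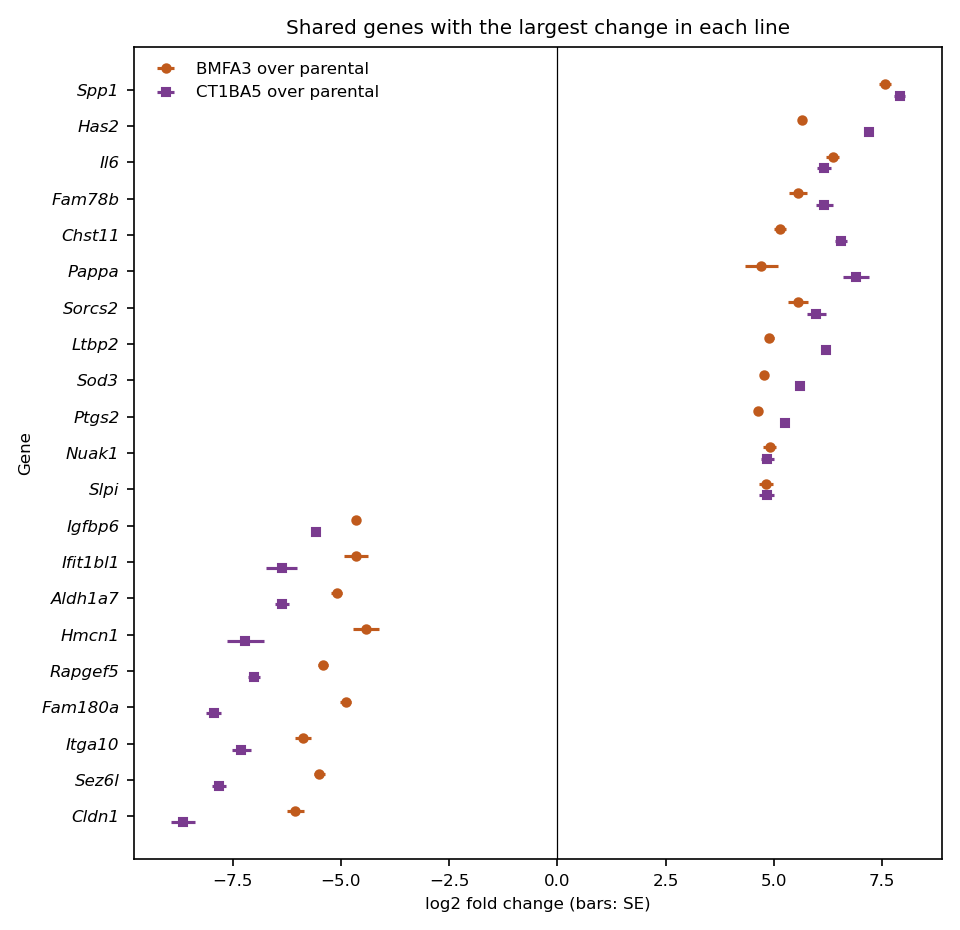
Log2 fold change over parental cells in BMFA3 (circles) and CT1BA5 (squares), with SE bars, for those shared genes of largest change in both lines that are reported here and had more than 3 counts in each group. Slpi and Nuak1 lie at nearly the same value in both lines, whereas Pappa lies at 4.71 in BMFA3 and 6.90 in CT1BA5.

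Most genes of glycolysis, the breakdown of glucose to pyruvate in the cytosol, rose. Of 33 tested genes of glucose uptake and glycolysis, 23 rose in both lines (22.2% of all genes did) and 3 fell, with a median log2 fold change of 1.10 in BMFA3 and 0.94 in CT1BA5. The list took 2.31 and 2.36% of all counts in BMFA3 and 1.86 and 1.99% in CT1BA5, against 0.970 to 1.08% in parental libraries. Slc16a3, the transporter that exports lactate, stood at 381 and 362 CPM in BMFA3 and 489 and 508 CPM in CT1BA5, against 22.4 to 35.3 CPM in parental cells (log2 fold change 3.65 ± 0.11 and 4.07 ± 0.11; adjusted p = 7.5e-16 and 5.9e-17, edgeR). Pgk1, phosphoglycerate kinase, stood at 1768 and 1760 CPM in BMFA3 and 1556 and 1701 CPM in CT1BA5, against 466 to 578 CPM in parental cells. The glucose transporter gene Slc2a1 rose by 1.46 ± 0.073 in BMFA3 and 1.43 ± 0.073 in CT1BA5, and Ldha, lactate dehydrogenase, by 1.18 ± 0.065 and 1.17 ± 0.065. Members that fell were another glucose transporter, Slc2a3 (-0.92 in BMFA3 and -1.64 in CT1BA5 on the log2 scale), Ldhb (-0.38 and -0.27) and Pdk4 (-0.68 and -1.91), a kinase that holds back pyruvate oxidation. The call of Ldhb in CT1BA5 was lost without the first CT1BA5 library, and that of Pdk4 in BMFA3 without the second BMFA3 library. Hif1a, the oxygen-regulated partner of the hypoxia-inducible factor, stood at 831 and 854 CPM in BMFA3 and 529 and 492 CPM in CT1BA5, against 135 to 143 CPM in parental cells. Epas1, which encodes the related HIF-2 alpha, stood at 3.72 and 3.11 CPM in BMFA3 and 1.42 and 0.701 CPM in CT1BA5, against 7.80 to 8.28 CPM in parental cells.

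The hypoxia-inducible factor is known to bind DNA with the core letters ACGTG, so the 250 bases before each RefSeq start (GRCm38.p6) were searched for them on both strands. Of 22 shared higher glycolysis genes with a RefSeq promoter, 12 (54.5%) held ACGTG. So did 25% of tested genes with a RefSeq promoter and 18.5% of all genes with one. A gene was counted when any of its promoters held a match, here and for the motifs below. A match shows these letters and not a bound site. The 2 members of largest change with a match are shown for how the letters lie. The Slc16a3 window is chr11:120948817-120949066 and the Pgk1 window chrX:106186850-106187099, both on the plus strand, with each match on either strand in capitals and the sequence 5′ to 3′ as transcribed.
Slc16a3: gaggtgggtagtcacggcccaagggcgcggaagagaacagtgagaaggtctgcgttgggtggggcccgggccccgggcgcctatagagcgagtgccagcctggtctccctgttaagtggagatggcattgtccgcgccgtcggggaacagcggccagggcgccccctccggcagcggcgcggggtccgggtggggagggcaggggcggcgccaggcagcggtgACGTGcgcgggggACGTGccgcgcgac
Pgk1: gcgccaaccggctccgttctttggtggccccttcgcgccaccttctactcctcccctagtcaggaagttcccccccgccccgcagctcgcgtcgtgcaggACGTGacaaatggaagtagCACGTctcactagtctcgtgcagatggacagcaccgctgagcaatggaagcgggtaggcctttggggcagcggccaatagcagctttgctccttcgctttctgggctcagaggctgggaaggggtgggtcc
Both windows hold 2 matches. In Slc16a3 they begin 27 and 14 bases before the start, and in Pgk1 150 and 131 bases before it.

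Ribosomal protein genes rose together at modest size. Of 80 cytosolic ribosomal protein genes tested, 76 rose in both lines and 0 fell, with a median log2 fold change of 0.70 in BMFA3 and 1.27 in CT1BA5. Rpl26 stood at 841 and 821 CPM in BMFA3 and 1081 and 1269 CPM in CT1BA5, against 361 to 422 CPM in parental cells. Over all genes of the family's name prefix, ribosomal proteins took 8.09 ± 1.42% of counts in the 4 tumour libraries and 4.66 ± 0.368% in the 3 parental libraries (SD; exact permutation test, two-sided p = 0.0571, the smallest p that 4 against 3 can give). By library this share was 6.98 and 6.92% in BMFA3, 8.58 and 9.89% in CT1BA5 and 4.41 to 5.08% in parental cells. The tumour SD thus spans 2 lines, and the permutation test takes the 4 tumour libraries as alike. Ribosomal protein genes and Eef1a1 have many processed copies in the genome, so their counts depend on how shared reads were handled. Of 42 genes of translation initiation and elongation, 17 rose (40.5%) and 6 fell (14.3%), or 13 and 9 with libraries scaled by their totals alone. Eef1g, part of the elongation factor complex, rose by 0.69 ± 0.069 in BMFA3 and 1.22 ± 0.069 in CT1BA5. Eif3f of initiation factor 3 rose by 0.65 ± 0.065 and 1.13 ± 0.065, whereas Eif3b of the same factor fell by 0.59 ± 0.066 and 0.48 ± 0.065. The amino acid list moved both ways, with 11 of 33 higher (33.3%) and 13 lower (39.4%). With libraries scaled by their totals alone, 9 were higher and 17 lower. Past 2-fold in both lines, 5 were higher and 4 lower. The genes named next are all ones that fell, so they do not stand for the whole list. Phgdh and Psat1, which start serine synthesis, were -1.18 ± 0.079 and -1.25 ± 0.092 in BMFA3 and -1.10 ± 0.079 and -1.81 ± 0.096 in CT1BA5 on the log2 scale. Chac1, Ddit3 and Atf3, targets of the stress factor ATF4, also fell, with Chac1 at 5.30 and 5.30 CPM in BMFA3 and 4.14 and 5.14 CPM in CT1BA5, against 25.9 to 31.0 CPM in parental cells.

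Some genes of mitochondrial respiration rose as well. Of 13 mitochondrially encoded genes 10 rose (76.9%) and 0 fell, beside 22.2% and 23.6% of all genes. Of these mt-Co1, a chain of cytochrome oxidase, stood at 4548 and 4720.4 CPM in BMFA3 and 6805 and 6434 CPM in CT1BA5, against 1853 to 1959 CPM in parental cells. All genes with the mt- name prefix, a wider set, took 0.904 ± 0.109% of counts in tumour libraries and 0.449 ± 0.0283% in parental libraries (SD, n = 4 and 3, exact permutation test, two-sided p = 0.0571). By library this was 0.853 and 0.789% in BMFA3, 1.04 and 0.936% in CT1BA5 and 0.416 to 0.466% in parental cells. Of 76 nuclear genes of the respiratory chain 32 rose in both lines (42.1%) and 1, Ndufa4, fell (1.32%), at a median log2 fold change of 0.13 in BMFA3 and 0.72 in CT1BA5. A further 34 were called in CT1BA5 alone. With libraries scaled by their totals alone, or with the replicate number as a block, 23 rose. Leaving out each library in turn gave 22 to 36, with 22 without the first BMFA3 library. Ndufs8 of complex I rose by 0.65 ± 0.10 in BMFA3 and 1.20 ± 0.099 in CT1BA5, and Atp5a1 of ATP synthase by 0.54 ± 0.064 and 0.93 ± 0.064. Both the glycolytic and the respiratory lists thus had more members higher than lower.

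Most listed genes of the route of secreted proteins rose. In the ER folding and translocation list 32 of 57 genes rose (56.1%) and 3 fell (5.26%), beside 22.2% and 23.6% of all genes. In the ER to Golgi list 35 of 48 rose (72.9%) and 4 fell (8.33%). The median log2 fold changes of these lists were 0.27 and 0.38 in BMFA3 and 0.67 and 0.83 in CT1BA5. Sec61b of the channel into the ER stood at 179.6 and 163 CPM in BMFA3 and 249.8 and 298 CPM in CT1BA5, against 89.7 to 100.5 CPM in parental cells. Creb3l1, a membrane-bound transcription factor of secretory cells, stood at 218 and 215 CPM in BMFA3 and 292 and 283 CPM in CT1BA5, against 72.1 to 79.4 CPM in parental cells, and its relative Creb3l2 rose by 1.31 ± 0.083 and 1.80 ± 0.083. Kdelr3, which returns escaped ER proteins, rose by 0.97 ± 0.069 in BMFA3 and 1.97 ± 0.068 in CT1BA5, and the ER prolyl isomerase gene Fkbp11 by 1.44 ± 0.088 and 2.59 ± 0.084. Xbp1, a factor of the unfolded protein response, rose less, by 0.38 ± 0.064 and 0.67 ± 0.064. Proteasome genes rose in 11 of 33 cases (33.3%, beside 22.2% of all genes) and fell in 0, and 7 were called in opposite directions. Without the first BMFA3 library, or under the replicate block, 7 proteasome genes rose. In the ER folding list 0 genes fell without the first BMFA3 library and 1 without the second BMFA3, the second parental or the third parental library or under the replicate block, and 5 fell with libraries scaled by their totals alone. In the ER to Golgi list 2 fell without the second BMFA3 or the third parental library, and under the replicate block.

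Collagen genes were called higher and lower in equal number. Of 22 collagen genes 6 rose and 6 fell (27.3% each, beside 22.2% and 23.6% of all genes), or 6 and 8 with libraries scaled by their totals alone. Col1a1 stood at 2893 and 2777 CPM in BMFA3 and 5451 and 5206 CPM in CT1BA5, against 1199 to 1417 CPM in parental cells, and Col11a1 at 67.3 and 57.7 CPM in BMFA3 and 92.6 and 84.2 CPM in CT1BA5, against 7.36 to 9.20 CPM. Col3a1 fell, to 1725 and 1710.3 CPM in BMFA3 and 798 and 796 CPM in CT1BA5, against 2134 to 2503 CPM in parental cells. Col6a1 of beaded filaments fell to 352 and 332 CPM in BMFA3 and 48.6 and 39.7 CPM in CT1BA5, against 737 to 895 CPM. The chains named thus differed in direction, with Col1a1 higher and Col3a1 and Col6a1 lower in both lines. Of 29 collagen and elastin modifying enzymes 17 rose (58.6%) and 4 fell (13.8%), or 13 and 5 with libraries scaled by their totals alone. Among those that fell were Loxl3, a relative of Lox whose gene overlaps Htra2, by 1.46 ± 0.075 in BMFA3 and 0.89 ± 0.073 in CT1BA5, and Pcolce, which helps trim procollagen, by 0.68 ± 0.069 and 0.99 ± 0.070. Lox, which crosslinks collagen, stood at 2839.6 and 2918 CPM in BMFA3 and 7574 and 6796 CPM in CT1BA5, against 733 to 801 CPM in parental cells. Bmp1, which trims procollagen, rose by 1.95 ± 0.061 in BMFA3 and 2.79 ± 0.062 in CT1BA5, and the prolyl hydroxylase gene P4ha2 by 1.44 ± 0.068 and 1.19 ± 0.069.

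Actin cytoskeleton and focal adhesion genes rose in 36 of 74 cases (48.6%) and fell in 9 (12.2%), beside 22.2% and 23.6% of all genes. With libraries scaled by their totals alone, 34 rose and 16 fell. Their median log2 fold change was 0.24 in BMFA3 and 0.51 in CT1BA5. Myl9, a light chain of contractile myosin, stood at 55.9 and 55.5 CPM in BMFA3 and 119.7 and 155 CPM in CT1BA5, against 9.37 to 11.7 CPM in parental cells. Acta2, smooth muscle actin, rose by 1.76 ± 0.065 and 3.47 ± 0.067, and Cnn1, the smooth muscle calponin, by 2.60 ± 0.30 and 6.49 ± 0.20, in BMFA3 and CT1BA5. Cnn1 itself was low in BMFA3, at 3.78 and 2.72 CPM, against 0.364 to 0.687 CPM in parental cells. The 6 markers of pericytes and smooth muscle summed to 94.9 and 97.0 CPM in BMFA3 and 136 and 161 CPM in CT1BA5, against 89.9 to 98.7 CPM in parental cells. Of these Rgs5 and Des were called higher in both lines, Myh11 was at 0.545 CPM or less in every library, and their part in the rise of contractile genes was not tested. Members of the actin list that fell included Ezr, the ezrin that anchors microvilli, at 782 and 796 CPM in BMFA3 and 234 and 225 CPM in CT1BA5, against 1581 to 1865 CPM in parental cells. Fhl1, a LIM domain protein of muscle, stood at 36.7 and 34.7 CPM in BMFA3 and 37.4 and 35 CPM in CT1BA5, against 223 to 229.6 CPM. The related gene Fhl2 moved the other way, by 1.01 ± 0.095 in BMFA3 and 2.22 ± 0.089 in CT1BA5.

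Serum response factor is known to bind the CArG box in promoters of contractile genes. In the 250 bases before the start, 5 of 28 shared higher actin genes with a RefSeq promoter (17.9%) held a CArG box. So did 1.45% of tested genes with a RefSeq promoter and 1.62% of all genes with one. The 2 members of largest change with a match were Myl9 (chr2:156775214-156775463, plus strand) and Fhl2 (chr1:43196762-43197011, minus strand), shown with the match in capitals.
Myl9: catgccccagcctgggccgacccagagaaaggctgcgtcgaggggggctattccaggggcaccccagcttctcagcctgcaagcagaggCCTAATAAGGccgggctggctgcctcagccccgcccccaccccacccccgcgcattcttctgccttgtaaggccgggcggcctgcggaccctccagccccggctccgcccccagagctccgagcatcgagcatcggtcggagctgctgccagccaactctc
Fhl2: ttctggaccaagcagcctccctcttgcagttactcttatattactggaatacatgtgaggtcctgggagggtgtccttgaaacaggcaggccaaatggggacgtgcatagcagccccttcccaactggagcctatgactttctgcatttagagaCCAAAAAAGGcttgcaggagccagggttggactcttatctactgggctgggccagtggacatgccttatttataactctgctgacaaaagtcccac
The match begins 161 bases before the start in Myl9 and 96 bases before it in Fhl2. Fhl2 has 2 promoters in the table, of which the one with the match is shown.

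Integrins, the receptors that hold cells to matrix, moved both ways. Of 17 tested, 8 rose in both lines (47.1%) and 6 fell (35.3%), beside 22.2% and 23.6% of all genes. With libraries scaled by their totals alone, 7 rose and 7 fell. Itga5, the fibronectin receptor chain, stood at 652 and 638 CPM in BMFA3 and 1644 and 1594 CPM in CT1BA5, against 147 to 152 CPM in parental cells. Itgb5, which pairs with the alpha V chain, stood at 230.4 and 229.9 CPM in BMFA3 and 528 and 524 CPM in CT1BA5, against 70.6 to 72.0 CPM, and Itga2, a collagen receptor chain, rose by 2.56 ± 0.21 and 3.48 ± 0.20. The collagen receptor chain gene Itga11 was 27.1-fold higher in BMFA3 (95% exact interval 8.83 to 135) and 236-fold higher in CT1BA5 (80.4 to 1151), from 3 counts over the parental group. Itgb4 of hemidesmosomes, which fasten epithelia to basement membrane, stood at 42.6 and 41.4 CPM in BMFA3 and 36.4 and 29.9 CPM in CT1BA5, against 92.6 to 109 CPM in parental cells. Basement membrane genes fell in 14 of 24 cases (58.3%) and rose in 3 (12.5%). Nid2, which links laminin to collagen IV, stood at 51.4 and 47.7 CPM in BMFA3 and 18.3 and 15.6 CPM in CT1BA5, against 275 to 323 CPM, and Lamb2, a laminin chain, fell by 2.20 ± 0.091 and 2.83 ± 0.096. Col18a1, the source of endostatin, rose by 1.21 ± 0.072 in BMFA3 and 2.20 ± 0.071 in CT1BA5.

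**Figure D5:**
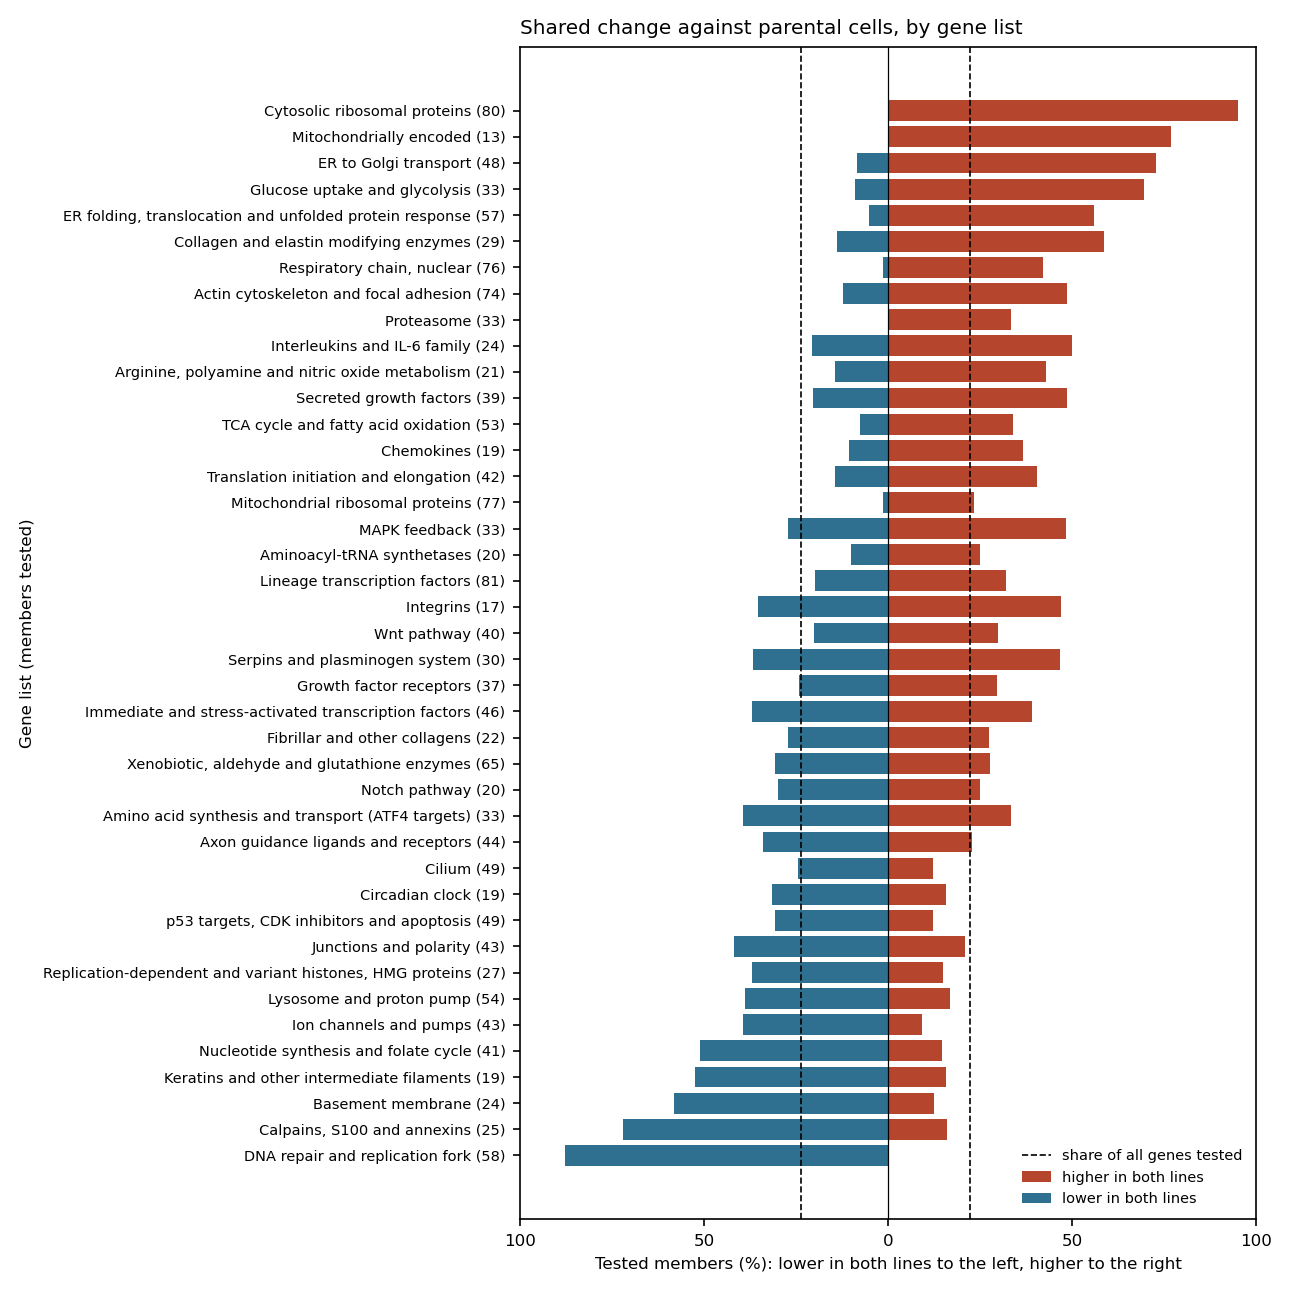
Share of each gene list's tested members (%, bars; number tested in brackets) called higher in both lines to the right and lower in both lines to the left. Dashed lines mark the shares over all tested genes, 22.2% higher and 23.6% lower; cytosolic ribosomal proteins lead on the right at 95% and DNA repair and replication fork genes on the left at 87.9%.

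Among secreted growth factors, 19 of 39 rose in both lines (48.7%) and 8 fell (20.5%), beside 22.2% and 23.6% of all genes. Their median log2 fold changes were 0.81 in BMFA3 and 1.5 in CT1BA5. Ligands of blood and lymphatic vessel growth were among those that rose and those that fell. Vegfa stood at 196 and 188 CPM in BMFA3 and 448 and 428 CPM in CT1BA5, against 30.3 to 39.8 CPM in parental cells, and Vegfc at 36.7 and 35.4 CPM in BMFA3 and 118 and 129 CPM in CT1BA5, against 6.99 to 7.42 CPM. Vegfd fell, to 20.7 and 22.5 CPM in BMFA3 and 4.79 and 3.04 CPM in CT1BA5, against 144 to 151 CPM in parental cells. The 2 ligands of lymphatic vessel growth, Vegfc and Vegfd, thus moved in opposite directions, with no overlap of tumour and parental libraries in either. Angptl4, a lipase inhibitor, stood at 247 and 236 CPM in BMFA3 and 164 and 174 CPM in CT1BA5, against 14 to 16 CPM. Fgf2 rose by 1.56 ± 0.071 and 1.55 ± 0.071, and the macrophage growth factor gene Csf1 by 1.19 ± 0.061 and 1.5 ± 0.061. Kitl, the ligand of the receptor Kit, fell by 1.56 ± 0.082 in BMFA3 and 3.65 ± 0.10 in CT1BA5.

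Of 37 growth factor receptors 11 (29.7%) were higher and 9 (24.3%) lower, near the 22.2% and 23.6% of all genes, or 9 higher and 10 lower with libraries scaled by their totals alone. Pdgfrb stood at 77.1 and 83.0 CPM in BMFA3 and 141 and 131 CPM in CT1BA5, against 19 to 20.6 CPM in parental cells. Pdgfra rose too, by 2.57 ± 0.11 in BMFA3 and 1.07 ± 0.12 in CT1BA5, and its ligand gene Pdgfb by 2.52 ± 0.29 and 6.43 ± 0.19. Fgfr1, a receptor of fibroblast growth factors, rose by 1.27 ± 0.095 and 2.99 ± 0.087, whereas Fgfr3 fell by 2.60 ± 0.29 and 3.39 ± 0.33. Met, the receptor of hepatocyte growth factor, fell by 0.78 ± 0.090 and 2.06 ± 0.10. Kdr, the receptor of VEGF on endothelium, stood at 22.9 and 23.8 CPM in BMFA3 and 15.2 and 13.9 CPM in CT1BA5, against 96.4 to 105 CPM in parental cells. Of the 5 endothelial markers Kdr was the only one above the count filter.

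Chemokines rose in 7 of 19 cases and fell in 2, and genes of interleukins and the IL-6 family rose in 12 of 24 cases and fell in 5. Il6 stood at 87.2 and 90.3 CPM in BMFA3 and 72.1 and 82.3 CPM in CT1BA5, against 0.582 to 1.84 CPM in parental cells. Its receptor chain gene Il6ra went down, to 4.45 and 3.51 CPM in BMFA3 and 3.30 and 3.89 CPM in CT1BA5, against 11.2 to 13.3 CPM. The IL-4 receptor gene Il4ra stood at 223 and 226 CPM in BMFA3 and 178 and 175 CPM in CT1BA5, against 28.5 to 36.6 CPM. Ccl7, an attractant of monocytes, stood at 196 and 179.7 CPM in BMFA3 and 110.5 and 126 CPM in CT1BA5, against 15 to 18.2 CPM. Cxcl12, the stromal ligand of CXCR4, fell by 0.83 ± 0.11 and 0.36 ± 0.10. Il18, an epithelial cytokine gene, fell by 1.56 ± 0.15 and 2.13 ± 0.16.

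Serine protease inhibitors and the plasminogen system changed in 25 of 30 cases, 14 higher (46.7%) and 11 lower (36.7%), beside 22.2% and 23.6% of all genes. Serpinb2, an inhibitor of plasminogen activators, stood at 13.6 and 15.1 CPM in BMFA3 and 27.2 and 26.9 CPM in CT1BA5, against 1.75 to 1.89 CPM. Prss23, a secreted serine protease, fell to 126 and 132 CPM in BMFA3 and 243 and 267 CPM in CT1BA5, against 788 to 818 CPM. In arginine metabolism 9 of 21 genes rose (42.9%) and 3 fell (14.3%). Ass1, which makes the arginine precursor argininosuccinate, stood at 678 and 692 CPM in BMFA3 and 1953 and 2093 CPM in CT1BA5, against 317 to 338 CPM in parental cells. The arginine transporter gene Slc7a2 rose by 2.28 ± 0.11 and 1.97 ± 0.11, while Slc7a1, the transporter of most cell types, fell by 0.86 ± 0.080 and 1.33 ± 0.084.

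Genes of DNA repair and the replication fork fell nearly throughout. Of 58 tested, 51 fell in both lines (23.6% of all genes did) and 0 rose, with a median log2 fold change of -1.20 in BMFA3 and -1.56 in CT1BA5. Clspn, an adaptor of the replication checkpoint, stood at 2.19 and 2.05 CPM in BMFA3 and 1.75 and 0.779 CPM in CT1BA5, against 15.6 to 17.1 CPM in parental cells. Exo1, a nuclease of mismatch repair, stood at 1.34 and 1.66 CPM in BMFA3 and 0.582 and 1.09 CPM in CT1BA5, against 9.66 to 11.9 CPM. Pola1, the catalytic chain of the priming polymerase, stood at 10.6 and 9.28 CPM in BMFA3 and 6.79 and 6.07 CPM in CT1BA5, against 45.1 to 48.8 CPM. Low but measurable levels thus remained in every tumour library. Nucleotide synthesis fell in 21 of 41 cases (51.2%) and rose in 6 (14.6%). Adssl1, a muscle form of adenylosuccinate synthase, rose to 17.1 and 14.8 CPM in BMFA3 and 55.3 and 58.9 CPM in CT1BA5, against 0.368 to 1.03 CPM. Ccnd1, the cyclin that opens the cell cycle, stood at 216 and 223 CPM in BMFA3 and 119 and 101 CPM in CT1BA5, against 939 to 1006 CPM in parental cells.

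E2F factors are known to bind letters such as TTTNNCGC in promoters of replication genes. Of 42 shared lower repair genes with a RefSeq promoter, 7 (16.7%) held TTTNNCGC on either strand within 250 bases before the start. So did 8.28% of tested genes with a RefSeq promoter and 4.94% of all genes with one. The 2 members of largest change with a match were Brip1 (chr11:86201194-86201443) and Pola1 (chrX:93632156-93632405), both on the minus strand and shown as transcribed. Brip1, a helicase that unwinds DNA at repair sites, fell by 2.71 ± 0.23 in BMFA3 and 3.42 ± 0.25 in CT1BA5.
Brip1: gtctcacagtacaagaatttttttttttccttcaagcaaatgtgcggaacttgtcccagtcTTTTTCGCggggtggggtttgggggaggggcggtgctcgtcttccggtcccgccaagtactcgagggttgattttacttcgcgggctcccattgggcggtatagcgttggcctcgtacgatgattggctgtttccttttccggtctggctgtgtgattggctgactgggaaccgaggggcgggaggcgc
Pola1: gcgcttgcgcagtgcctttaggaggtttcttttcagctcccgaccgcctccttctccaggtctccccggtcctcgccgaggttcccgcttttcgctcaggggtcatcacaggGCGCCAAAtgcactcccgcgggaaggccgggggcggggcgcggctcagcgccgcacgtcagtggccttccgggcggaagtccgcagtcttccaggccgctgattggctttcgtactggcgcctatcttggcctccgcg
The match, in capitals, begins 189 bases before the start in Brip1 and 138 bases before it in Pola1.

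Among genes of epithelial structure more fell than rose. Of 43 junction and polarity genes 18 fell in both lines (41.9%) and 9 rose (20.9%), beside 23.6% and 22.2% of all genes. The share that rose was thus near that of all genes. With libraries scaled by their totals alone, 22 fell and 6 rose. Of 19 keratin and other intermediate filament genes 10 fell (52.6%) and 3 rose (15.8%). Krt19 stood at 96.1 and 98.3 CPM in BMFA3 and 28.3 and 33.4 CPM in CT1BA5, against 933 to 1019.5 CPM in parental cells. Cldn15, a claudin that forms channels for sodium, stood at 10.1 and 10.2 CPM in BMFA3 and 0.647 and 0.623 CPM in CT1BA5, against 90.5 to 101 CPM. Nectin1, an adhesion molecule of junctions, went the other way, by 1.26 ± 0.082 in BMFA3 and 2.18 ± 0.079 in CT1BA5. Des, the muscle filament desmin, stood at 18.8 and 17.8 CPM in BMFA3 and 21.6 and 22.9 CPM in CT1BA5, against 5.94 to 8.37 CPM.

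Calcium-binding S100 proteins, annexins and calpains fell in 18 of 25 cases and rose in 4, with a median log2 fold change of -0.59 in BMFA3 and -0.68 in CT1BA5. Anxa1, annexin A1, stood at 1522 and 1512 CPM in BMFA3 and 748 and 842 CPM in CT1BA5, against 4184 to 4553 CPM in parental cells. S100a6 stood at 1071 and 1014 CPM in BMFA3 and 757 and 936 CPM in CT1BA5, against 3245 to 3252 CPM, and Anxa3 at 247 and 246 CPM in BMFA3 and 279.5 and 313 CPM in CT1BA5, against 1081 to 1103 CPM. S100a4, often used as a fibroblast marker, was low in all groups and fell by 2.86 ± 0.41 and 2.77 ± 0.41. Anxa6 rose, to 386 and 392 CPM in BMFA3 and 546 and 559 CPM in CT1BA5, against 159 to 173 CPM in parental cells. Ion channel and pump genes fell in 17 of 43 cases (39.5%) and rose in 4 (9.30%), beside 23.6% and 22.2% of all genes. Among those that fell, the chloride channel regulator gene Clca3a1 stood at 4.33 and 2.92 CPM in BMFA3. It stood at 0.323 and 0.0779 CPM in CT1BA5, against 25.6 to 27.5 CPM in parental cells. Lysosome genes fell in 21 of 54 cases (38.9%) and rose in 9 (16.7%). With libraries scaled by their totals alone, 28 fell and 7 rose. Man2b1, a mannosidase, fell by 1.22 ± 0.079 and 1.06 ± 0.079, and Neu1, a sialidase, by 0.79 ± 0.088 and 0.79 ± 0.089.

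Of 65 enzymes of xenobiotics, aldehydes and glutathione 18 (27.7%) were higher and 20 (30.8%) lower, beside 22.2% and 23.6% of all genes. The retinaldehyde dehydrogenase genes Aldh1a1 and Aldh1a2 moved in opposite directions, and in BMFA3 Aldh1a1 stayed the higher of them. Aldh1a1 (ENSMUSG00000053279, chromosome 19, 20492715 to 20643465) stood at 139.7 and 152 CPM in BMFA3 and 52.8 and 55.6 CPM in CT1BA5, against 1635 to 1763 CPM in parental cells. Aldh1a2 stood at 9.14 and 9.15 CPM in BMFA3 and 58.8 and 54.2 CPM in CT1BA5, against 0.0728 to 0.147 CPM. The near-identical relative Aldh1a7 fell by 5.10 ± 0.13 and 6.36 ± 0.16, and reads of Aldh1a1 and Aldh1a7 may be shared. Glutathione-making Gclc stood at 40.1 and 37.5 CPM in BMFA3 and 36.6 and 30.8 CPM in CT1BA5, against 158 to 167 CPM, and Nqo1 and Gsr, targets of the antioxidant factor NRF2, fell by 1.15 ± 0.10 and 0.86 ± 0.073 in BMFA3 and 1.21 ± 0.10 and 1.20 ± 0.075 in CT1BA5. Cyp1b1, which oxidises steroids and polycyclic compounds, stood at 506 and 521 CPM in BMFA3 and 242 and 214 CPM in CT1BA5, against 40.5 to 50.6 CPM in parental cells.

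Transcription factors of cell lineage rose in 26 of 81 cases (32.1%) and fell in 16 (19.8%), beside 22.2% and 23.6% of all genes. Snai1, a repressor of epithelial genes, stood at 59.5 and 58.0 CPM in BMFA3 and 116 and 113 CPM in CT1BA5, against 5.61 to 7.16 CPM in parental cells, and Runx1 at 66.3 and 61.7 CPM in BMFA3 and 126 and 105 CPM in CT1BA5, against 5.34 to 11.2 CPM. Gata5, a factor of mesothelium and heart, was 294-fold lower in CT1BA5 (95% exact interval 52.5 to 11626), which had 1 count, and stood at 0.853 and 0.928 CPM in BMFA3, against 8.73 to 11.6 CPM in parental cells. Zbtb16, a known target of the glucocorticoid receptor, stood at 3.41 and 2.58 CPM in BMFA3 and 1.75 and 1.25 CPM in CT1BA5, against 46.7 to 52.2 CPM in parental cells. Among stress-activated factors 18 of 46 (39.1%) rose and 17 (37.0%) fell. Junb and Egr2 rose by 1.60 ± 0.066 and 2.55 ± 0.23 in BMFA3 and 2.10 ± 0.067 and 4.76 ± 0.19 in CT1BA5. Klf4 fell by 1.43 ± 0.069 in BMFA3 and 3.16 ± 0.080 in CT1BA5. Of 19 clock genes 6 (31.6%) fell, Per1, Per2 and Clock among them, and 3 (15.8%) rose, among them Bhlhe40. Over all genes 23.6% fell and 22.2% rose. Fewer clock genes fell (4) without the first BMFA3 library, and more rose (5) without the second CT1BA5 library. The time of day of sampling is not given in the sources used here.

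In the Notch pathway 5 of 20 genes rose and 6 fell, or 25% and 30% beside 22.2% and 23.6% of all genes. Jag1 and Jag2, ligands of Notch, moved apart: Jag1 stood at 33.7 and 31.1 CPM in BMFA3 and 461 and 418 CPM in CT1BA5, against 12.3 to 12.8 CPM in parental cells, and Jag2 at 4.14 and 5.10 CPM in BMFA3 and 4.21 and 5.61 CPM in CT1BA5, against 37.7 to 41.0 CPM. In the Wnt pathway 12 of 40 rose (30.0%) and 8 fell (20.0%), near the shares of all genes. With libraries scaled by their totals alone, 11 rose and 11 fell. Rspo3, which amplifies Wnt signals, stood at 29.9 and 30.5 CPM in BMFA3 and 28.4 and 27.3 CPM in CT1BA5, against 3.58 to 5.06 CPM, and Sfrp4, a Wnt antagonist, changed by -3.67 ± 0.23 and -5.91 ± 0.32. Of 33 genes of feedback on kinase and cytokine signals 16 (48.5%) rose and 9 fell, with Tnfaip3 and Smad7, brakes on NF-kB and TGF-beta signals, at 1.83 ± 0.079 and 1.67 ± 0.075 in BMFA3 and 1.90 ± 0.079 and 3.03 ± 0.073 in CT1BA5. Dusp1, a phosphatase of MAP kinases, fell by 2.51 ± 0.11 and 2.65 ± 0.11.

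The size of the shared change differed between the lines. In a direct test of CT1BA5 against BMFA3, 50.8% of all tested genes were called, beside 55.4% of the shared higher genes and 49.6% of the shared lower genes. The direction of the difference was uneven. Of the shared higher genes 1384 (45.2%) had the larger rise in CT1BA5 and 311 (10.2%) in BMFA3. Of the shared lower genes 1393 (42.7%) had the larger fall in CT1BA5 and 224 (6.87%) in BMFA3. Over all tested genes 25.5% were higher in CT1BA5 than in BMFA3 and 25.3% lower. Ccl7, Angptl4, Cyp1b1, Pdgfra and Hif1a were among those with the larger rise in BMFA3. For Slpi the difference of the lines was 0.03 on the log2 scale (adjusted p = 0.87, edgeR) and for Nuak1 -0.06 (adjusted p = 0.695), which does not show that the lines act alike.

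A few features that the choice of genes did not use went with the direction. The shared lower genes were longer, with a median merged exon length of 5103 bases against 3972 for the shared higher genes and 4280 for all tested genes. Of the 3444 genes with the longest exons (6667 bases and over) 17.3% were higher and 31.4% lower in both lines, and of the 3447 with the shortest (up to 2577 bases) 24.3% were higher and 15.6% lower. The median log2 fold change was -0.05 in BMFA3 and -0.30 in CT1BA5 for the longest, and 0.05 and 0.30 for the shortest. The sources used here give neither RNA quality nor fragment length, whose part in this pattern was not tested. Protein-coding genes were 94.5% of the shared higher, 95.4% of the shared lower and 91.1% of all tested genes. Of the shared genes, 580 of the 3061 higher and 399 of the 3259 lower belong to one of the 41 function lists, so most are described here by counts and levels alone. Among the genes named, Has2, Ltbp2, Sult1a1, Nid2, Kdelr3, Atp5a1, Fgf2, Ddit3, Dusp1, Junb and Ccnd1 share exon positions with another gene above 1 CPM. Whether counting used the strand is not given in the sources used here, so their values are uncertain to that extent.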

How the data were processed

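RNA of 7 libraries was measured by sequencing. The authors deposited 1 table of raw read counts per gene for 54532 genes, whole numbers with no normalization; per the submitters' processing notes, CASAVA, DESeq2 1.24.0 and the mm10 genome were used, while the sources used here name neither the aligner nor how reads were assigned to genes and strands. Of the gene IDs 54495 matched GENCODE mouse release 21 (GRCm38), which gave symbols, coordinates and exon lengths, and 37 did not.

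Genes were kept by edgeR's filterByExpr at a minimum count of 10 (13784 genes with 99.9% of counts, 31634 genes being at 0 throughout), scaled by TMM and fitted in edgeR 4.0.16 (R 4.3.3) with all 7 libraries and 3 groups; the common biological coefficient of variation was 0.083. Contrasts were each tumour line over parental cells, their mean and CT1BA5 over BMFA3, adjusted by Benjamini-Hochberg over all genes tested at 0.05. Levels are CPM on TMM-scaled libraries. Where a group had 3 counts or fewer, a fold is given from counts with a 95% exact interval or, at 0 counts, as a bound that sets the group at 3 counts; intervals and floors cover counting error only. No 2 replicates agreed within sampling noise. Same-numbered libraries deviated together between the tumour lines and oppositely between either line and parental cells, so they were not paired.

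The genes, the 41 function lists and the motifs were chosen with earlier results of these data known. Named genes were the shared genes of largest fold, the 12 of largest CPM difference in each direction, up to 3 members a list in each direction, and 10 of opposite direction. Those of largest fold had to have tumour and parental groups that did not overlap, so that outcome was fixed by the choice. Chosen after their values were seen were Ldha, Slc2a1, Acta2, Itgb5, Vegfa, Vegfc, Pdgfb, Fgf2, Csf1, Fgfr1, Pdgfra, Met, Ass1, Gclc, Nqo1, Gsr, Phgdh, Psat1, Epas1, Junb, Col3a1, Xbp1, Brip1, Pola1 and Fhl2. Some genes that this rule names are not reported here. Promoters are RefSeq's (GRCm38.p6). Alternatives were DESeq2 1.42.0, limma-voom (limma 3.58.1), other scalings and filters, and leaving out each library.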

Additional observations from a re-analysis of the deposited data

Results flagged for a closer look

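Each gene listed differed between the lines by more than 2-fold in a direct test of CT1BA5 against BMFA3 (edgeR's glmTreat, adjusted p under 0.05 over all genes tested). Values are log2 differences, CT1BA5 over BMFA3, unless a fold is named.

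Among genes higher than parental in both lines, the rise was larger in CT1BA5 for Pappa (2.20), Nos2 (1.68), Kif21b (1.60), Has2 (1.57), Chst11 (1.42), Lox (1.32) and Ltbp2 (1.30). These genes act in nitric oxide synthesis, in the matrix and its crosslinking, and in protease cleavage of growth factor binding proteins, among others.

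Among genes lower than parental in both lines, the level was lower in CT1BA5 for Upk3b (-4.06), Efemp1 (-3.72), Fam180a (-3.05), Sez6l (-2.31), Cavin2 (-1.80), Ezr (-1.78), Upk1b (-1.70) and Aldh1a1 (-1.43). Sult1a1 was at 0 counts in CT1BA5, so that its level in BMFA3 was at least 4.19-fold higher, and Sh2d4a was 7.49-fold higher in BMFA3 than in CT1BA5 (95% exact interval 2.28 to 38.7).

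A further set moved in opposite directions, higher than parental in BMFA3 and lower in CT1BA5. It holds Saa3 (-7.41), Ptger3 (-6.66), Gdpd2 (-4.49), Steap4 (-4.19), Spon2 (-3.65), Tnip3 (-3.43), Il1r1 (-3.19), Slc16a1 (-3.02) and Prl2c2 (-2.90), and Chl1, which was 143-fold higher in BMFA3 than in CT1BA5 (48.5 to 694). The fall of Ptger3 in CT1BA5 was no longer called by DESeq2, by limma-voom, with the replicate block, at an adjusted p of 0.01, without the second CT1BA5 library or without the third parental library.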

How the results depend on the processing

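The shared counts (3061 higher, 3259 lower) were within 1.5 times under each alternative except the test against 2-fold, which left 579 higher and 800 lower, and 983 higher and 1387 lower for the mean of both lines. That test called 231 shared genes different between the lines, against 3312. Leaving out each library in turn gave 2597 to 3121 higher and 2762 to 3269 lower, 4286 to 4800 higher and 4426 to 4875 lower for the mean, and 2318 to 3317 different between the lines. DESeq2 gave 2818 higher and 2975 lower, and limma-voom 3088 and 3298. Under a replicate block, the shared counts were 2619 higher and 2815 lower, those of the mean 4197 and 4297, and 2704 genes differed between the lines. The correlations of same-numbered deviations were 0.275 between BMFA3 and CT1BA5, -0.408 between BMFA3 and parental and -0.388 between CT1BA5 and parental libraries, so not every pair is above 0.1 and the numbers were not taken as pairs. No shared gene was called in the opposite direction in either line under these alternatives, but with library totals alone the fold change of 80 shared genes changed sign in CT1BA5, uncalled, as did that of 1 without the first CT1BA5 library. With each line fitted alone, the mean and the difference of the lines cannot be computed. Low counts limit genes under 1 CPM most.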
